A study of Homo sapiens with 4 samples.

Results

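The regions described here are the H3K27ac peaks of chromosome 19 in MOLM13 cells, chosen as every peak that the deposited broad peak lists place on chromosome 19. They were 3056 of the 55852 peaks after OTX015 and 4531 of the 86207 peaks after SNDX-50469 plus OTX015. MOLM13 is a human acute myeloid leukaemia line that carries an MLL-AF9 fusion. Cells were exposed for 16 hours to 500 nM OTX015, a BET bromodomain inhibitor, or to 500 nM SNDX-50469, a Menin inhibitor, together with 500 nM OTX015, so both groups received OTX015. Each treatment had 1 ChIP library, so differences could not be checked against replicates and none was tested. Solved from the lowest peaks, the background of the OTX015 library was 0.764 fragments per base. That of the combination library was 1.47, or 1.92 times as high. This background stands here for depth, since read numbers are not given in the lists. The lowest combination peaks therefore needed 4.76 times background and the lowest OTX015 peaks 6.54 times. What this gap contributes to any gain with the combination was not tested, and the counts below carry it. Where paired values follow without a name, the first is for OTX015 and the second for the combination.

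Acetylation of histone H3 at lysine 27 marks active promoters and enhancers, and BET proteins bind acetylated histones there through their bromodomains. Menin ties MLL proteins, and the fusions made from them, to chromatin. Chromosome 19 is the most gene-dense human chromosome. It holds clusters of KRAB zinc finger genes, whose products are mostly repressors that act on transposable elements, and families of receptors and proteases of granulocytes and monocytes.

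Promoter sequences are shown first for the genes whose promoters had the greatest length under peaks, in both lists or in 1 list alone. They are extremes by covered length and need not be typical of their class. A promoter is the 5′ end of a protein-coding gene with 1 kb on either side. Each run is the 250 bases before the 5′ end, from RefSeq on GRCh38.p14, read 5′ to 3′ on the strand of the gene. Capitals mark matches, on either strand, to a GC box (GGGCGG, or CCGCCC on the other strand) or a CCAAT box (CCAAT). An ETS motif was searched as CCGGAAG on both strands. The letters TGACGTC stood for a CRE core and TATAAA for a TATA box. An AP-1 site was searched as TGACTCA and a YY1 motif as AAGATGGC. The printed runs held no match to these last 5, and matches of different motifs were counted separately where they overlapped. In CLEC11A, PRSS57, LYL1 and TYROBP, the promoter was covered most in both lists.

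CLEC11A (chr19:50723114-50723363, plus strand): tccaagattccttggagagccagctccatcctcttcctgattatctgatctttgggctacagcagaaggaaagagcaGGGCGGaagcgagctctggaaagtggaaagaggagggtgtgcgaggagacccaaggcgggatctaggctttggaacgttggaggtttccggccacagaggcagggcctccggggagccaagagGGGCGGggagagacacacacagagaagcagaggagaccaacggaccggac

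PRSS57 (chr19:695453-695702, minus strand): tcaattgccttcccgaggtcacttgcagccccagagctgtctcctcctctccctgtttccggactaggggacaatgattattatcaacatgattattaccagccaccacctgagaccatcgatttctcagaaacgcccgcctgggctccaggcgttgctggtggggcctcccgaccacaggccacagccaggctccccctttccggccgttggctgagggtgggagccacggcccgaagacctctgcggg

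LYL1 (chr19:13102859-13103108, minus strand): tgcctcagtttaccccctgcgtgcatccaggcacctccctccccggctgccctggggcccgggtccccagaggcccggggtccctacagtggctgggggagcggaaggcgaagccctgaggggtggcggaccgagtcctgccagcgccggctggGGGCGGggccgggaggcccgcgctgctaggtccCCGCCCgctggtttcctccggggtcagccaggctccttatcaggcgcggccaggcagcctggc

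TYROBP (chr19:35908296-35908545, minus strand): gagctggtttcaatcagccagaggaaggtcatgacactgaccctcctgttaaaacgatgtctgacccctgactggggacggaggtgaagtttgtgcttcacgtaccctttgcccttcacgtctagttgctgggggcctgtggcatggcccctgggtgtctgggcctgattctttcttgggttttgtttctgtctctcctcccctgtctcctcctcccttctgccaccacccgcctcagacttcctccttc

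In EDDM13 and NUDT19 the promoter had a peak in the OTX015 list alone. The gene record LOC124900420 starts at the same base as EDDM13 and has the same promoter. HSH2D ranked with them but is named only.

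EDDM13 (chr19:56272498-56272747, plus strand): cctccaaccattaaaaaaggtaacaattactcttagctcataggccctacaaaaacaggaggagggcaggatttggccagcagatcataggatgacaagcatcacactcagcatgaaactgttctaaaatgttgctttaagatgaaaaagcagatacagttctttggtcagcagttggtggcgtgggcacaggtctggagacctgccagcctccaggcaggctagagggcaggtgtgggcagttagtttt

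NUDT19 (chr19:32691571-32691820, plus strand): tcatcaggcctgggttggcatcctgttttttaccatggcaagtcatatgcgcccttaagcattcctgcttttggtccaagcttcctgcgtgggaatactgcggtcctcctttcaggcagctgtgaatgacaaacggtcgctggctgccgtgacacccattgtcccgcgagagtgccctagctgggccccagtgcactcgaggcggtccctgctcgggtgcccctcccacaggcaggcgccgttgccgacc

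In ARRDC2, TMEM259 and ARHGAP45 the promoter had a peak in the combination list alone.

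ARRDC2 (chr19:18000874-18001123, plus strand): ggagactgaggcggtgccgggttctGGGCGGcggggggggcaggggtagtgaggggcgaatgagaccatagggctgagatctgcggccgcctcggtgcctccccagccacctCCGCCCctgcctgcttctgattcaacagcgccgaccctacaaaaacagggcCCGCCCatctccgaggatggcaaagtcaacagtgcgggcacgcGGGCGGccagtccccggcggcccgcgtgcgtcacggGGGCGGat

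TMEM259 (chr19:1021124-1021373, minus strand): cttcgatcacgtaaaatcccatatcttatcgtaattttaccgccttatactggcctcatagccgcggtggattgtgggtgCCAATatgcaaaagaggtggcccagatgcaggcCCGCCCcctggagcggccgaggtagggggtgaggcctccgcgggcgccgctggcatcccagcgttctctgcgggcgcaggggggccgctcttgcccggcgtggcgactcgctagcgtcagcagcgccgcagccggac

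ARHGAP45 (chr19:1065709-1065958, plus strand): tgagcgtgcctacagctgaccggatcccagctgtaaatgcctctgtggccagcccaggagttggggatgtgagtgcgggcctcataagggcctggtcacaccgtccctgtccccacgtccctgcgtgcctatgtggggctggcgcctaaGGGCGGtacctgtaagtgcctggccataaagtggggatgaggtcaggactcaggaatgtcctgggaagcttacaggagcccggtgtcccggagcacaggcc

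The 4 promoters covered in both lists belong to genes of blood cells. CLEC11A encodes a secreted growth factor of haematopoietic progenitors, and peaks covered all 2.0 kb of its promoter in both lists. PRSS57, a granule serine protease of neutrophils, had 1.98 kb after OTX015 and 2.0 kb after the combination. LYL1, a basic helix-loop-helix factor of blood progenitors, had 2.0 and 1.83 kb, and TYROBP, the adaptor also known as DAP12, had 1.82 and 2.0 kb. Their printed runs differed in composition, from 56.4% GC and 5 CpG in TYROBP to 75.2% GC and 19 CpG in LYL1. The EDDM13 promoter, covered over 1.40 kb after OTX015 alone, had 47.6% GC and 1 CpG. The 3 promoters of the combination list alone had 1.32, 1.22 and 1.15 kb under peaks and 62.8% to 70.4% GC.

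Over all 1047 chromosome 19 promoters with a sequence at the outer 5′ end, the classes overlapped widely in composition. Median GC content of the 250 bases was 65.2% for 183 promoters acetylated in both lists, 64.2% for 82 with a peak after OTX015 alone, 62.8% for 157 with a peak after the combination alone and 62.0% for 625 without a peak. Between the lower and upper quartile, the promoters of both lists ran from 59.8% to 70.4% GC, and that of promoters without a peak from 56.0% to 67.6%. Median CpG numbers were 21, 15, 17 and 15. A GC box was found in 67.2% of promoters of both lists and in 61.3% of those without a peak, beside 63.1% over the chromosome and 56.0% of 13820 promoters of the genome. A CCAAT box was found in 35.5% and 41.3%, beside 35.2% of the genome. ETS motif shares were 14.8% and 14.9%, beside 12.1% of the genome. The ETS motif differed more by gene family than by acetylation: it stood in 30.8% of 182 promoters of ZNF genes and in 11.4% of the other 865. A CRE core was found in 5.64% of chromosome 19 promoters, a TATA box in 6.97%, an AP-1 site in 2.87% and a YY1 motif in 2.29%.

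Peaks covered 1.55 Mb of chromosome 19 after OTX015 and 2.06 Mb after the combination, a ratio of 1.33. These were 2.64% and 3.52% of its 58.6 Mb up to the last gene or peak. Chromosome 19 was second only to chromosome 8 among the 24 chromosomes by share covered, in both lists. The ratio depended on how the lists were matched. With the combination list cut to its 55852 strongest peaks, so that both lists held equal numbers, cover was 1.55 and 1.54 Mb, a ratio of 0.997. With only peaks of −log10 q of at least 2 it was 0.419 and 0.555 Mb, a ratio of 1.32. That cut does not match the lists, since the deeper combination library passes it more easily at equal enrichment. Over all chromosomes it kept 4211 OTX015 and 11097 combination peaks. Comparisons between the lists at this cut, here and below, carry this limit.

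Gene density was 24 protein-coding genes per Mb, against 6.37 for the genome. Per gene, cover was 1.1 kb after OTX015 and 1.46 kb after the combination, below the genome values of 1.32 and 2.25 kb, which include the heavily covered chromosome 8. Without the 6 densely covered chromosomes 5, 6, 8, 13, 19 and 20, the other 18 had 0.502 and 0.50 kb per gene. Chromosome 17, the next most gene-dense with 13.9 genes per Mb, had 0.689% and 0.751% covered, or 0.498 and 0.542 kb per gene. Chromosome 22, with 8.62 genes per Mb, had 0.585% and 0.489%, and the densely covered chromosome 20 had 1.21% and 1.59% at 8.25 genes per Mb. Chromosome 19 thus had more cover for each of its genes than the gene-dense chromosomes 17 and 22. Chromosome copy number in these cells was not examined here, and what it contributes to this difference was not tested. Across the 24 chromosomes, the share covered and the gene density had Pearson's r of 0.16 after OTX015 and 0.05 after the combination, with Spearman's rank correlations of 0.44 and 0.45. Chromosomes 5, 6, 8, 13 and 20 were then left out for their high cover, while chromosome 19, also densely covered, was kept. Over the 19 chromosomes left, r was 0.93 and 0.92 and the rank correlations 0.86 and 0.87. Since the cut was made on cover itself, the rise in r was largely set in advance. The points of a list share 1 library, and chromosome 19 lies far from the others on both axes.

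**Figure D1:**
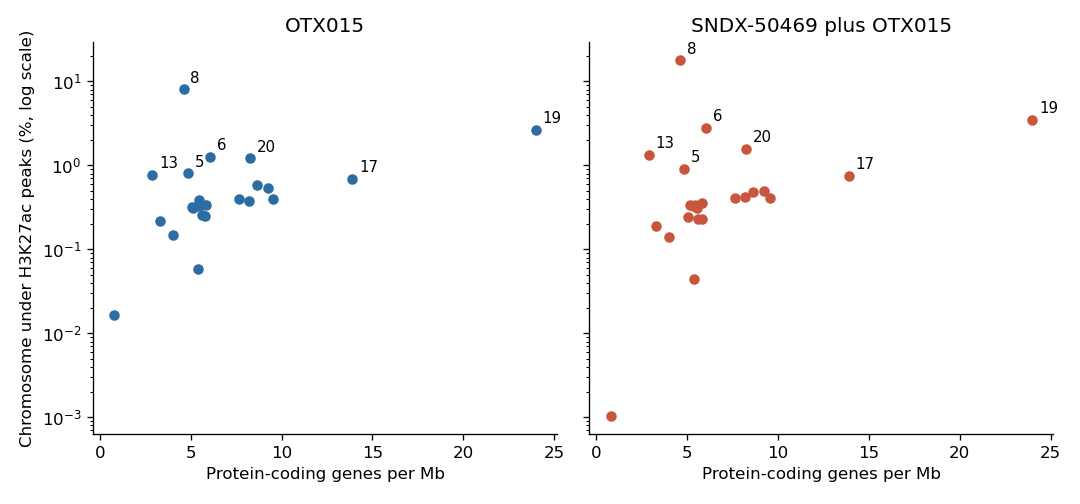
Share of each chromosome under H3K27ac peaks (%, log scale) against protein-coding genes per Mb, for OTX015 (left) and SNDX-50469 plus OTX015 (right). Each point is a chromosome. Chromosome 19 stands at 24 genes per Mb with 2.64% and 3.52% covered, and chromosomes 5, 6, 8, 13 and 20 lie above other chromosomes of like gene density.

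Most chromosome 19 peaks lay in genes. After OTX015, 10.9% of the peaks (Wilson 95% interval 9.84% to 12.1%, which covers counting of peaks only) met a promoter, 63.4% (61.7% to 65.1%) a gene body alone and 25.7% (24.2% to 27.3%) no gene. After the combination the shares were 9.89%, 65.6% and 24.5%. On chromosome 20, 49.8% of OTX015 peaks and 49.6% of combination peaks were intergenic, and 3.91% and 3.88% met a promoter. The gene-dense chromosomes were closer to chromosome 19, with 28.2% and 29.5% intergenic and 13.7% and 9.96% at promoters on chromosome 17, and 30% and 28.9% intergenic on chromosome 22. Peaks were short, with medians of 310 and 311 bp, and low, with medians of the deposited fold enrichment of 3.59 and 3.42. The deposited fold has a pseudocount in it and was 3.40 and 3.24 for the lowest peaks of the lists, those at 6.54 and 4.76 times background. A −log10 q of at least 2 was reached by 323 OTX015 and 611 combination peaks, and of at least 5 by 18 and 9. There were 103 OTX015 and 82 combination peaks of at least 2 kb.

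Of OTX015 peaks, 29.3% (27.7% to 30.9%) were met by a combination peak by at least 1 bp, and 20.2% (19.1% to 21.4%) of combination peaks by an OTX015 peak. Overlap was larger among strong and wide peaks. It was 14.5% below the lower quartile of −log10 p of the OTX015 peaks and 52.4% above the upper quartile, and 102 of the 103 wide OTX015 peaks and 79 of the 82 wide combination peaks were met. Promoter peaks were met more often, 56.2% of them after OTX015 and 42.0% after the combination, than intergenic peaks, at 21.4% and 16.2%. On chromosome 17 the shares were 27% and 22.1%, and on chromosome 20 they were 20.2% and 15.0%.

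Each of the 10 peaks of highest −log10 p in either list was met by at least 1 peak of the other list. The highest −log10 p of both lists was in a peak over the promoter of PLPPR3, just before the azurophil granule genes AZU1 and PRTN3. It measured 2.96 kb with a −log10 p of 12.6 after OTX015 and 5.48 kb with 12.5 after the combination. Peaks at LAIR1, an inhibitory collagen receptor of leukocytes, were among the 10 highest in both lists. Just upstream of the gene, a peak of 3.05 kb had a −log10 p of 10.0 after OTX015. Over the same place the combination peak measured 6.57 kb and had 9.01. Within the gene, a combination peak of 1.27 kb had 10.9, where the OTX015 peak had 7.63. An OTX015 peak of 1.22 kb in the gene had 9.59, where the combination peak had 6.15. PRSS57 was also among the 10 of both lists, with 9.50 and 8.60. RAB3D, a small GTPase of secretory vesicles, was nearest to a peak of 7.20 kb with 10.8 after OTX015 and of 8.61 kb with 10.5 after the combination.

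Others stood high in 1 list. EPN1, an endocytic adaptor, had a peak of 7.33 kb with a −log10 p of 12.4 after OTX015, where the combination peak reached 6.24. HNRNPL and HNRNPUL1, which encode RNA-binding proteins, had 10.7 each after OTX015, and 8.43 and 7.61 in the combination peaks there. PRAM1, an adaptor of granulocyte signalling, had 10.7 and 7.85, and RFXANK, a regulator of MHC class II genes, 9.59 and 4.75. Among the 10 highest combination peaks, 1 lay 27.7 kb from CYP4F2, with 11.0, where the OTX015 peak had 7.47. ODAD1 had 10.1 in the combination list and 8.64 in the OTX015 list, PRTN3 9.43 and 6.57, BSG, the surface glycoprotein basigin, 9.16 and 9.10, and ARHGEF18 8.81 and 6.56. A −log10 p grows with depth at equal enrichment, so values compare peaks within a list.

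The widest OTX015 peak, 12.6 kb, ran upstream from POU2F2, the octamer factor OCT2, into DEDD2, and the combination peak there measured 11.9 kb. The widest combination peak, 12.5 kb at chr19:33264384-33276873, lay between genes 25.7 kb from CEBPA, the master factor of granulocyte differentiation. Of it, 9.72 kb was also under 3 OTX015 peaks, the highest of which had a −log10 p of 7.72 against 6.80 in the combination list. The CEBPA promoter itself had 0.0380 kb under a peak after OTX015 and none after the combination. Its 5′ window, 10 kb on either side of the 5′ end, held 3.45 and 4.10 kb.

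Cover was highest at the end of the short arm and lowest between 20 and 25 Mb. In 12 bins of 5 Mb, the first held the most, 315 kb after OTX015 and 408 kb after the combination, 6.31% and 8.17% of its length. The bins from 5 to 20 Mb had 2.92% to 4.04% covered after OTX015 and 4.67% to 5.61% after the combination. The bin from 20 to 25 Mb, in which 32 of 34 genes have a ZNF symbol, held 9.64 kb in 35 peaks after OTX015 and 0.233 kb in 2 peaks after the combination. The bin from 25 to 30 Mb, next to the centromere, with 7 genes, held 34.1 and 15.7 kb, and that from 30 to 35 Mb, with CEBPA and CEBPG, 120 and 96.9 kb. On the long arm from 35 Mb on, the ratio of combination over OTX015 was above 1 in each of the 5 bins, from 1.11 between 35 and 40 Mb to 1.67 between 45 and 50 Mb. The bins of lower cover after the combination were thus the 3 from 20 to 35 Mb, which also have the fewest genes, at 1.40 to 7.00 per Mb. In the other 9 bins, of 24 to 37.2 genes per Mb, the ratio was 1.11 to 1.67. Gene density alone did not set the order of cover: the bin past 55 Mb had the most genes per Mb, with 60 ZNF genes of 134, and 1.61% and 1.91% covered. Over the 12 bins r between the share covered and gene density was 0.49 and 0.61, and the rank correlations 0.24 and 0.41.

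**Figure D2:**
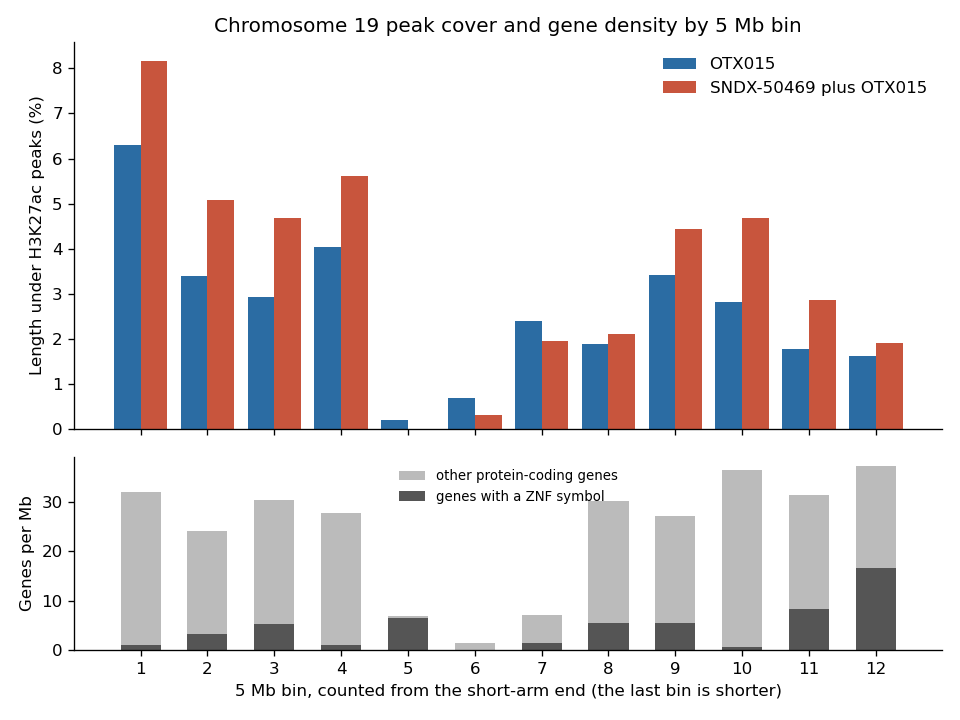
Length under H3K27ac peaks (%, upper panel) in each 5 Mb bin of chromosome 19 after OTX015 (blue) and SNDX-50469 plus OTX015 (red), and protein-coding genes per Mb (lower panel) with ZNF genes in dark grey. Bins 5, 6 and 7 have lower bars after the combination and the fewest genes.

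In bins of 1 Mb the split was by kind of gene as well as by number. Zinc finger megabases were the 12 with at least 5 genes of which at least 50% have a ZNF symbol, a class set after the values of the larger bins were seen. They held 75.7 kb after OTX015 and 66.0 kb after the combination, a ratio of 0.871, with less cover after the combination in 9 and more in 3. Their median ratio was 0.226, and the sum was carried by the megabase from 44 to 45 Mb, which held 28.9 and 39.8 kb. In the 4 megabases from 20 to 24 Mb OTX015 peaks covered 0.386 to 2.50 kb each and combination peaks at most 0.118 kb. Megabases of fewer than 5 genes held 55.2 and 21.9 kb and none of the 7 had more after the combination. The other 40 held 1417 and 1973 kb, a ratio of 1.39, with more in 33 and less in 7.

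The direction in zinc finger megabases depended on the cut. With −log10 q of at least 2, which the deeper combination library passes more easily, they held 8.78 kb after OTX015 and 16.5 kb after the combination. The loss was thus among peaks below that cut. With equal numbers of peaks the ratio was 0.639 there and 1.05 in the other megabases. Sparse megabases of the other 18 chromosomes had a ratio of 0.862, the 4 zinc finger megabases there 0.573 and the remaining ones 1.03, with the sparse and the zinc finger megabases below 1. Pooled over the densely covered chromosomes 5, 6, 8, 13 and 20, the ratio was 2.09 in sparse megabases and 2.01 in the remaining ones. Of these, chromosome 8 held the most cover, 11.7 Mb after OTX015 and 25.9 Mb after the combination. Over each whole chromosome the ratio was 2.21 on chromosomes 6 and 8, 1.72 on 13, 1.31 on 20 and 1.12 on 5. In single ZNF genes, 24 of 250 promoters had a peak after OTX015 and 17 after the combination. ZNF536, the gene with the largest difference, had 10.9 kb in its locus after OTX015 and 4.10 kb after the combination, a locus being the gene body with 10 kb either side.

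**Figure D3:**
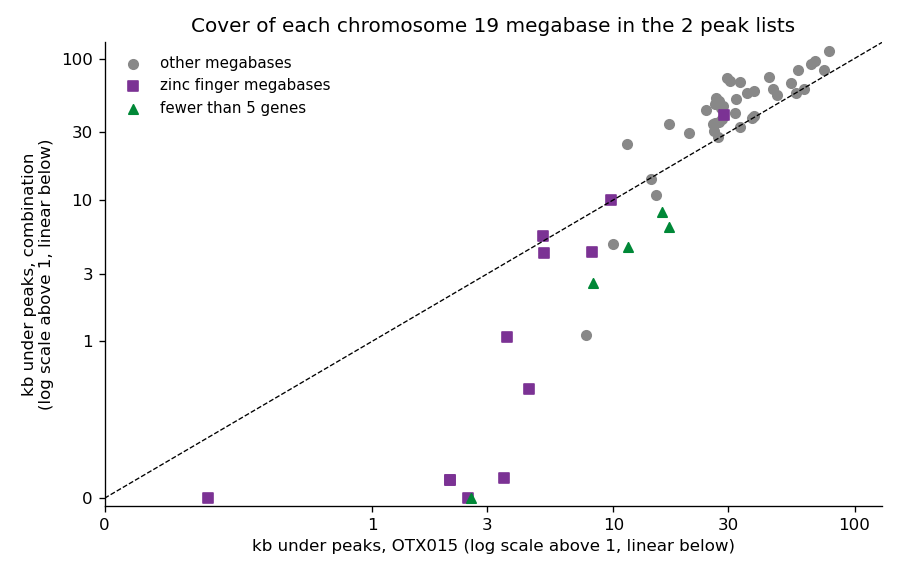
Kilobases under H3K27ac peaks in each 1 Mb bin of chromosome 19, combination against OTX015, on axes that are logarithmic above 1 kb and linear below. Points are bins with cover in the OTX015 list and the dashed line marks equal cover. Of the 12 zinc finger megabases (squares) 9 lie below the line, as do all 5 plotted megabases with fewer than 5 genes (triangles), while 33 of the 40 others (circles) lie above it.

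More chromosome 19 promoters had a peak after the combination. Of 1407 genes, 347 had a promoter peak after OTX015, 24.7% (22.5% to 27%), against 14.9% of all genes, and 426 had one after the combination, 30.3% (27.9% to 32.7%), against 15.3%. Both lists shared 227, 16.1% against 9.02% of all genes. The OTX015 list alone had 120, 8.53% against 5.90%, and the combination list alone 199, 14.1% against 6.33%. Shared promoters were 65.4% of those of the OTX015 list and 53.3% of those of the combination list. On chromosome 17 fewer promoters had a peak after the combination, 158 of 1153 after OTX015 and 136 with SNDX-50469 added, and on chromosome 22 the numbers were 60 and 51 of 438. Chromosome 20 had 78 and 98 of 531. Both lists thus had higher promoter shares on chromosome 19 than on these 3 chromosomes. By promoter share it ranked 4 of 24 chromosomes after OTX015 and 3 after the combination. Chromosome 8, with 48.1% and 75.4%, and chromosome 6, with 25.8% and 36.2%, were higher in both lists. Chromosome 13, with 27.5% and 29.6%, was higher after OTX015 only. Among genes without a ZNF symbol, 323 and 409 of 1157 had a promoter peak. With equal numbers of peaks the combination list had 332 promoters, fewer than the 347 of OTX015.

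The excess of the combination list was large at the 5′ end itself and small just after it. Among 1157 genes without a ZNF symbol, the base at the 5′ end was under a peak in 70 genes after OTX015, 6.05%, and in 136 after the combination, 11.8%. At 0.3 kb downstream the numbers were 142 and 143 genes, a ratio of 1.01. At 1.0 kb downstream they were 84 and 117, and at 2.0 kb upstream 48 and 82. The OTX015 list thus had a dip at the start and a narrow rise behind it, and the combination list a flat top over both. With equal numbers of peaks the base at the 5′ end was covered in 70 and 115 genes and that at 0.3 kb in 142 and 124, and with −log10 q of at least 2 in 36 and 67 and in 65 and 72. On the other 18 chromosomes the ratio was also higher at the 5′ end, 1.14, than 0.3 kb downstream, where 805 of 14827 genes had the base under a peak after OTX015 and 519 after the combination, a ratio of 0.645. In ZNF genes, in steps of 0.5 kb over 10 kb either side, no distance had more than 3.60% of genes under a peak after OTX015 or 2.80% after the combination.

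**Figure D4:**
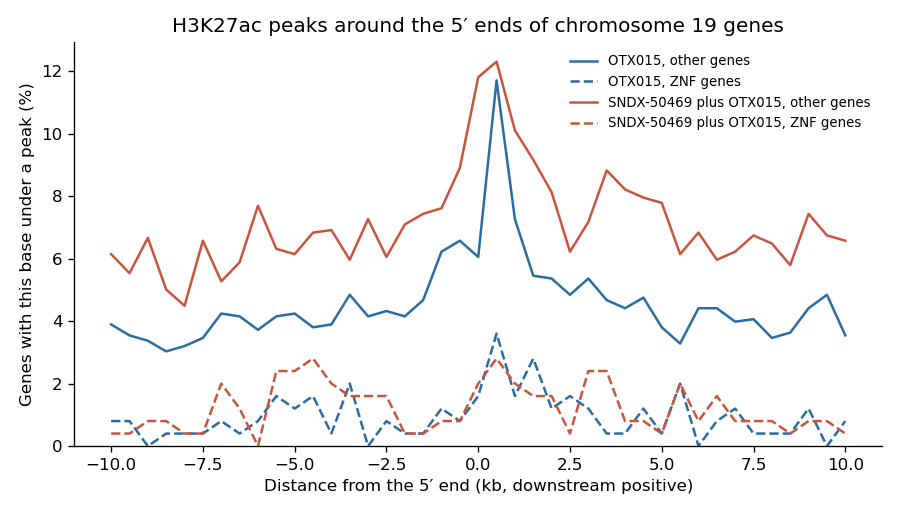
Share of chromosome 19 genes (%) whose base at each distance from the 5′ end (kb, downstream positive) lay under a peak, in steps of 0.5 kb, for 1157 genes without (solid) and 250 with (dashed) a ZNF symbol. At the 5′ end the solid lines stand at 6.05% after OTX015 (blue) and 11.8% after the combination (red), and 0.5 kb downstream at 11.7% and 12.3%.

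Loci on chromosome 19 more often had more cover after the combination than less. Of the 1407 loci, 201 had at least 2 kb more after the combination, 14.3% against 7.39% of all genes, and 30 had at least 2 kb less, 2.13% against 1.73%. The median difference was 0.281 kb, against 0 over all genes, and 164 loci had no peak. Of the 1243 loci with cover, 833 had more after the combination, 67.0%, and 410 had less, which is the share to set beside the counts of each gene list. The genes covered most near the 5′ end were much the same in both lists. ZFP36, which encodes the mRNA-destabilising protein tristetraprolin, had 12.3 and 12.2 kb in its 5′ window. PRAM1 had 11.9 and 13.5 kb, POU2F2 11.3 and 12.7 kb, PPP6R1, a phosphatase subunit, 9.46 and 9.54 kb, and AZU1, which encodes azurocidin, 9.36 and 10.8 kb. NIBAN3 had 8.55 and 7.64 kb, EPN1 8.35 and 6.92 kb, LAIR1 8.32 and 10.5 kb, KCNN4, a calcium-activated potassium channel, 8.24 and 7.33 kb, and SMG9, a factor of nonsense-mediated decay, 8.07 and 7.5 kb. BCL3, MYO1F, ELANE and REXO1 joined the 10 highest after the combination.

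Among genes at least 20 kb apart, the 8 with the largest losses in the 5′ window included the prostanoid receptor genes TBXA2R and PTGIR. TBXA2R, the thromboxane receptor, had 7.14 kb after OTX015 and 3.75 kb after the combination, and PTGIR, the prostacyclin receptor, 2.82 and 0.378 kb. IQCN, whose window reaches JUND, had 5.95 and 2.91 kb, MFSD12, a lysosomal transporter, 3.27 and 0.601 kb, and AP2A1, a clathrin adaptor subunit, 3.67 and 1.09 kb. EDDM13 had 2.38 and 0.265 kb, TPM4, a tropomyosin, 3.89 and 1.97 kb, and CEACAM21, an adhesion molecule, 5.47 and 3.58 kb. The loss at TBXA2R was not seen with −log10 q of at least 2, where its locus had 2.40 kb more after the combination. The deeper combination library passes that cut more easily. At MFSD12 and EDDM13 neither list had a peak of that strength.

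The 8 largest gains ran from 3.87 to 5.77 kb, and the losses from 1.90 to 3.39 kb. REXO1, an exonuclease gene, had 7.5 kb after OTX015 and 13.3 kb after the combination, and PCP2, beside XAB2 and STXBP2, 2.19 and 7.89 kb. ICAM5, in a row of adhesion genes with ICAM1 and ICAM4, had 0.355 and 5.74 kb. CIRBP, the cold-inducible RNA-binding protein gene, had 0.962 and 5.54 kb, and SIGLEC9, an inhibitory sialic acid receptor of monocytes and neutrophils, 2.22 and 6.67 kb. TBC1D17, a Rab GTPase-activating protein gene, had 2.1 and 6.03 kb, UBE2M, the NEDD8-conjugating enzyme gene, 2.97 and 6.88 kb, and TMEM238, beside RPL28, none and 3.87 kb, with no peak of −log10 q of at least 2 in either list.

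Receptors for chemoattractants and adhesion molecules gained most in proportion among the gene lists, from little cover after OTX015. The lists were chosen with earlier results of these data known, so this rank is no support for the gain. The receptor list holds formyl peptide receptors (FPR1, FPR2, FPR3), C5a receptors, the ADGRE family, ICAM genes and PLAUR. Its 14 loci together held 4.33 kb after OTX015 and 32.5 kb after the combination, a ratio of 7.49. All 14 had more, 9 of them by at least 2 kb. On the chromosome 67.0% of covered loci had more, and 14.3% of all loci by at least 2 kb. FPR3 had 0.643 and 6.88 kb, ICAM5 0.483 and 5.91 kb, ICAM1 0.355 and 5.57 kb, and ICAM4 0.355 and 5.55 kb. The ICAM loci overlap and share peaks. FPR1 and FPR2 had no peak after OTX015 and 2.36 and 2.75 kb after the combination. With equal numbers of peaks the list held 4.33 and 22.1 kb, with 13 of 14 higher. These new peaks were weak, and with −log10 q of at least 2 the list held 0.307 and 2.91 kb.

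The ratio at some receptor genes was far above that of their surroundings, and at others close to it. From FPR1 to FPR3, at chr19:51735172-51836190, 3 OTX015 peaks covered 0.637% of the sequence and 28 combination peaks 10.7%, a ratio of 16.8, while the surrounding 5 Mb had a ratio of 1.59. The highest −log10 p there was 4.55 after OTX015 and 5.07 after the combination. From ICAM1 to ICAM5, at chr19:10261120-10306778, 2 peaks covered 1.06% and 13 covered 13.8%, with a ratio of 13 against 1.86 in the surroundings. The stretch from TMEM238 to RPL28, at chr19:55369244-55413342, went from 2 peaks over 0.512 kb to 14 over 7.42 kb, a ratio of 14.5 against 1.26. From LAIR1 to LILRB5 the ratio was 1.43 against 1.38 in the surroundings, and from SIGLEC9 to SIGLEC7 it was 1.80 against 1.77. These stretches were picked after their values were seen. TYROBP and HCST, a pair of adaptor genes of activating receptors, had 7.53 and 7.65 kb between them, and the stretch from AZU1 to CFD 18 and 20.8 kb, or 32.2% and 37.2% of its length.

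Most members of the other myeloid lists had more cover, as did 67.0% of covered loci of the chromosome. Their ratios over the list ran from 1.15 for the granule proteases, below the 1.33 of the chromosome, to 1.89 for the Siglec genes. The 4 neutrophil granule proteases all had more after the combination, led by PRTN3, proteinase 3, with 10.1 and 12.4 kb in its locus, and ELANE, neutrophil elastase, with 6.36 and 8.03 kb. Of 14 LILR, LAIR and neighbouring receptors 13 had more, with 17 and 26.0 kb over the list, and LILRA4 had none and 2.28 kb. With −log10 q of at least 2 that list held 13.3 and 12.9 kb, and the Siglec list 4.74 and 4.63 kb, and neither list of peaks had one of that strength at LILRA4 or CD33. Of 9 Siglec genes 7 had cover and all 7 had more, SIGLEC9 with 6.34 and 12.4 kb and CD33 with 0.146 and 2.51 kb. Of 12 myeloid adaptors and cytokine signalling genes 10 had more: MYO1F, a myosin of neutrophils and macrophages, had 9.79 and 19.2 kb and VAV1, a Rac exchange factor, 4.58 and 8.70 kb. TNFSF14, the cytokine LIGHT, had 0.336 and 2.55 kb. The VAV1 gain was not seen with −log10 q of at least 2, where the difference, combination minus OTX015, was −0.0520 kb.

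All 12 innate immune and NF-kB genes had more cover after the combination, with 25.2 and 42.9 kb over the list. BCL3, a nuclear IkB protein, had 8.26 and 12.3 kb, C3, the central complement component, 1.41 and 4.86 kb, and IRF3, a factor of the interferon response, 0.154 and 2.73 kb. TRIM28, the corepressor of KRAB zinc finger proteins, had 1.58 and 4.44 kb. With equal numbers of peaks 8 of the 12 had more and 4 less, and C3 and IRF3 had no peak of −log10 q of at least 2 in either list.

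Transcription factor genes held much cover as a list, though unevenly, with 0.499 and 0.551 kb at KLF1. No locus of the 16 was at least 2 kb higher after the combination, and 1 was lower by that much. Over the chromosome these shares were 14.3% and 2.13% of loci. The 16 haematopoietic factors held 87.2 kb after OTX015 and 93.3 kb after the combination, with 12 higher, but with equal numbers of peaks they held 87.2 and 72.2 kb and 14 were lower. ZBTB7A, a repressor of lineage genes also called LRF, had 12.2 and 9.40 kb. POU2F2 had 14.9 and 16.2 kb, NR2F6, an orphan nuclear receptor, 2.20 and 3.98 kb, and RFX1 5.87 and 7.20 kb. The 10 immediate early and stress genes held 45.2 and 49.6 kb with 5 higher and 5 lower, and 45.2 and 44.6 kb when both lists held equal numbers of peaks. BAX, a pro-apoptotic BCL2 family member, had 2.89 and 5.67 kb, GADD45B, a stress response gene, none and 2.21 kb, IER2 3.46 and 5.33 kb, and the AP-1 subunit JUND 6.75 and 5.08 kb. GADD45B had no peak of −log10 q of at least 2.

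Chromatin and MLL complex genes on chromosome 19 differed in direction among themselves. Of the 19 in the list 15 had more and 4 less, with 95.6 and 124 kb over the list. With equal numbers of peaks the list held 95.6 and 86.8 kb, with 7 higher and 12 lower. SMARCA4, the BRG1 ATPase of SWI/SNF complexes, had 2.93 and 9.29 kb, and DOT1L, the histone H3 lysine 79 methyltransferase, 12.4 and 10.7 kb. MED26, a Mediator subunit, had 2.51 and 7.27 kb. ELL, an elongation factor and MLL fusion partner, had 9.23 and 15.0 kb, although with −log10 q of at least 2 that difference was −2.38 kb.

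The 12 cell cycle and growth kinase genes held 33.6 and 53.9 kb, with 10 higher and 1 lower. With equal numbers of peaks the list held 33.6 and 40.6 kb, with 8 higher and 3 lower. INSR, the insulin receptor gene, had 6.72 and 13.5 kb, and PIK3R2, a regulatory subunit of PI3 kinase, 0.668 and 3.63 kb. STK11, the kinase LKB1, had 2.67 and 5.05 kb, and AKT2 1.06 and 3.04 kb. With −log10 q of at least 2 the differences, combination minus OTX015, were 0.317 kb at INSR, 1.02 kb at PIK3R2, 1.88 kb at STK11 and 0.166 kb at AKT2. Of 13 cytosolic ribosomal protein genes 11 had more, RPL28 with 0.512 and 7.42 kb. Promoters with a peak among them numbered 7 and 6, and with equal numbers of peaks 6 of the 13 loci had more and 7 less.

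**Figure D5:**
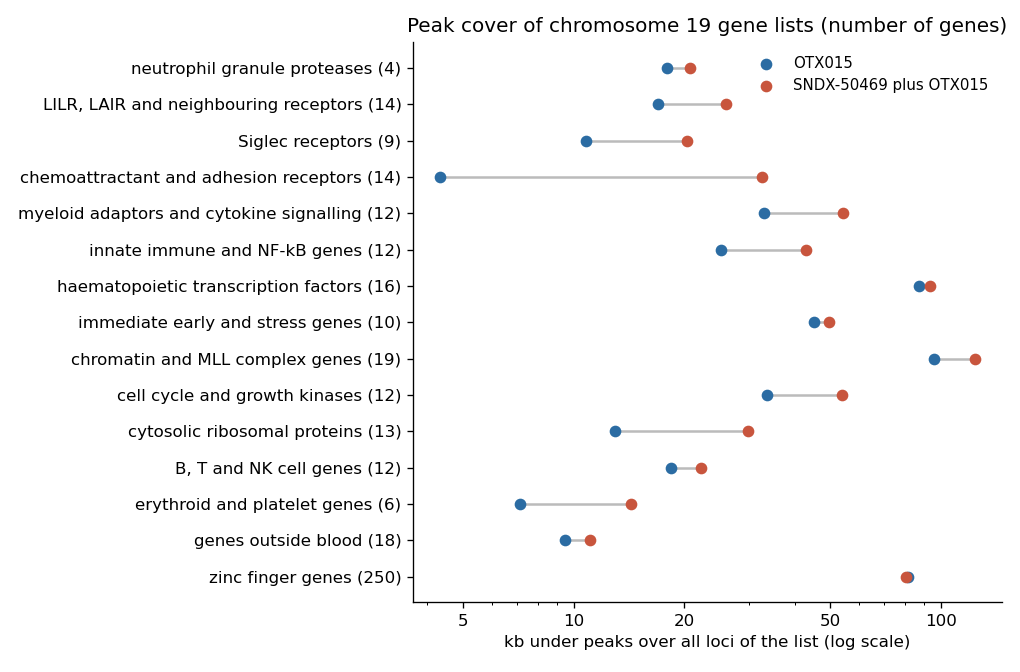
Kilobases under H3K27ac peaks (log scale) over all loci of each gene list of chromosome 19 after OTX015 (blue) and SNDX-50469 plus OTX015 (red), with the number of genes in brackets. The chemoattractant and adhesion receptors show the longest line, from 4.33 to 32.5 kb, and the zinc finger genes lie together at 81.4 and 80.3 kb.

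Cover of marker genes was set beside the chromosome, on which 78.2% of loci had cover after OTX015 and 78.5% after the combination. Of 7 granulocyte and monocyte markers 6 had a promoter peak after OTX015 and 5 after the combination, against 24.7% and 30.3% of chromosome 19 genes. All 7 loci had cover in both lists. These 7 were picked by hand, AZU1, PRTN3 and ELANE are neighbours, and CEBPA counted with 0.0380 kb after OTX015. All 4 granule proteases had a promoter peak in both lists, but fewer members did in other myeloid lists. There it was 4 and 5 of 14 LILR, LAIR and neighbouring receptors and 2 and 3 of 9 Siglec genes. Of the 14 chemoattractant and adhesion receptors it was 2 and 7. Of 4 B cell markers 2 and 3 had a promoter peak, of 4 NK cell markers 1 and 1, and of the 2 erythroid markers KLF1 and EPOR none and 1. The 12 B, T and NK cell genes held 18.4 and 22.3 kb, of which CD70 alone had 10.5 and 7.56 kb, and CD79A, part of the B cell receptor, 2.72 and 4.99 kb. The 6 genes of the erythroid and platelet list all had more after the combination, 7.17 and 14.3 kb in all. With equal numbers of peaks the list held 7.17 and 12.7 kb, with 4 higher and 2 lower. EPOR, the erythropoietin receptor gene, had none and 2.80 kb and GDF15 1.54 and 3.71 kb. EPOR had no peak of −log10 q of at least 2. Over 50 kb flanks GDF15 had −3.21 kb, combination minus OTX015. The 18 genes of tissues outside blood held 9.47 and 11.1 kb, 7 with more and 9 with less, and with equal numbers of peaks 9.47 and 5.33 kb, with 4 higher and 12 lower. AMH, the hormone of the gonads, had 0.519 and 3.57 kb, while CKM, the muscle creatine kinase gene, had 0.756 and 0.151 kb.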

How the data were processed

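H3K27ac ChIP-seq was done on MOLM13 cells, 1 library per treatment. Per the submitters' processing notes, the tools were bcl2fastq 2.17, Trimmomatic 0.33, Bowtie 1.1.2 and MACS2 2.1.0, on GRCh38. Broad peaks were deposited by the authors as 1 list for each ChIP library, without pooling. Each deposited peak has a score, a ratio of pileup to background called fold enrichment, and −log10 values of its p and q. Input libraries were not used here, and read numbers are not given in the lists, so depth was solved from the fold and −log10 p of the lowest peaks with a Poisson model and 1 as pseudocount.

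Covered length is the union of peaks. Gene positions came from RefSeq on GRCh38.p14, and a 5′ end means the outer end of a gene. Of 1451 protein-coding genes of chromosome 19, 1407 had a strand, 1185 from the RefSeq promoter table on GRCh38 and 222 by symbol and chromosome from GENCODE on GRCh37. No coordinate was converted. The 1047 printed or searched promoters are those whose table entry starts at the outer end. Intervals are Wilson 95% intervals, which cover counting error only. The genes named are those nearest to the 10 peaks of highest −log10 p in each list, the 10 with most cover in the 5′ window, the 8 with the largest difference in each direction and up to 4 members of each of 15 gene lists with the largest difference in locus cover. Promoters printed are the 4 with most cover in both lists and the 3 in each list alone. Some members that this rule names are not reported here. CEBPA, DOT1L, FPR1, FPR2, HCST, TYROBP and the widest peaks are named besides, after their values were seen. The members and lists were chosen with earlier results of these data known. Covered length, overlap and the background were tested on simulated data and were right in 200 of 200 runs each. Alternatives were stricter peaks, equal numbers of peaks, a common enrichment, merged peaks, other windows and another overlap rule. Scripts ran in Python 3.11.15 with pandas 2.3.3, numpy 2.4.6, matplotlib 3.10.9 and scipy 1.17.1.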

Additional observations from a re-analysis of the deposited data

How the results depend on the processing

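The excess of cover and promoter peaks on chromosome 19 did not hold when the lists were matched in size. The cover ratio of 1.33 was 0.997 with equal numbers of peaks and 0.130 with a common enrichment of at least 6.54 times background, a floor that every OTX015 peak passes by construction and 1160 of 86207 combination peaks passed, 103 of them on chromosome 19. It was 1.32 with −log10 q of at least 2, 1.42 with peaks within 1 kb merged and 1.33 without the widest 1% of peaks. The promoter ratio of 1.23 was 0.957 with equal numbers and 0.0865 with a common enrichment, and 1.17 to 1.31 with other windows or with any transcript start of the promoter table. The share of OTX015 peaks met, 29.3%, was 41.5% with −log10 q of at least 2, 24.1% with equal numbers, 3.17% with a common enrichment and 23.8% when 50% of the shorter peak had to be met. A common enrichment turned the ratio of the other megabases to 0.141, and −log10 q of at least 2 that of zinc finger megabases to 1.88. Among the gene lists, the cover ratio turned with equal numbers for haematopoietic transcription factors (0.828), immediate early and stress genes (0.987), chromatin and MLL complex genes (0.908) and genes outside blood (0.563). With −log10 q of at least 2 it turned for LILR, LAIR and neighbouring receptors (0.970), Siglec receptors (0.977), chromatin and MLL complex genes (0.995), B, T and NK cell genes (0.778) and zinc finger genes (1.89). The ratio of genes covered 0.3 kb downstream of the 5′ end was 0.873 with equal numbers. Of 51 named loci that differed by at least 2 kb, 48 kept their direction in the gene body alone, 50 with 50 kb flanks, 39 with −log10 q of at least 2 and 51 with equal numbers. Most of these loci were named for their differences in the same 2 lists, and each setting reuses the same peaks. A kept direction was therefore largely set in advance and is no support for the gains and losses. The direction turned at LAIR1 in the gene body alone (−0.165 kb), at GDF15 with 50 kb flanks (−3.21 kb), and with −log10 q of at least 2 at TBXA2R (2.40 kb), VAV1 (−0.0520 kb) and ELL (−2.38 kb). At that strength neither list had a peak at C3, CD33, EDDM13, EPOR, GADD45B, IRF3, LILRA4, MFSD12 and TMEM238, 9 of the 51. Apart from the common enrichment, which falls on the combination list alone, the cause was not tested. No paired analysis was possible because each treatment had 1 library and no result comes from a test. The classes of 1 Mb bins, the transcript starts, the removal of wide peaks and the settings of gene lists and of the 5′ end were added after seeing the data.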
